A study of Mus musculus with 6 samples.

Results

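The genes described here are 8 genes of alcohol dehydrogenase and retinoid metabolism: Adh1, Adh6a and Adh7, Aldh1a1, Aldh1a2 and Aldh1a3, Rbp2 and Cyp26b1. They were taken by gene symbol from the 2 deposited tables of RefSeq entries, and each gene found there had 1 entry. The table of RingKO and WT cells, with 18376 entries, held 7 of them, and the table of Bcat_RingKO and Bcat cells, with 17076 entries, held 6. Adh7 had a line in the first table only, and Cyp26b1 is not analysed here. The genes were selected on measured values, the deposited fold changes of RingKO over WT and of Bcat_RingKO over Bcat being known when they were proposed, so their own values are given as a description, without a test.

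RNA was sequenced from small-intestinal crypt cells sorted for Lgr5-GFP, the reporter of the stem cell gene Lgr5, of C57BL/6 mice 6 days after 3 tamoxifen injections. RingKO cells (2 libraries, called A and B) came from Lgr5Gfp-CreERT2 mice with Ring1a-/- and Ring1bf/f alleles, and WT cells (2 libraries, A and B) from Lgr5Gfp-CreERT2 mice without them. Bcat_RingKO cells (1 library) carried Lgr5Gfp-CreERT2-Ctnnb1-ex3 with Ring1a-/- and Ring1bf/f, and Bcat cells (1 library) carried Lgr5Gfp-CreERT2-Ctnnb1-ex3 alone. All 4 groups thus shared the tamoxifen treatment and the Cre recombinase of the Lgr5 allele, which acts in Lgr5-expressing cells, whereas the Ring1a alleles were null in the whole animal; the age of the mice is not given in the labels. Ring1a (symbol Ring1) and Ring1b (symbol Rnf2) are the genes of the 2 ubiquitin ligases in Polycomb repressive complex 1, which keeps developmental genes silent, and Ctnnb1-ex3 is an allele of the gene for beta-catenin, the effector of Wnt signalling.

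The RingKO libraries held 2911422 and 2651201 reads, the WT libraries 6753789 and 6294932, Bcat_RingKO 4470853 and Bcat 922153. Ring1 had 9 and 11 reads in RingKO, against 484 and 363 in WT, and 43 reads in Bcat_RingKO, against 24 in the much shallower Bcat library. Levels of single genes and sums of marker lists are given as RPM, the reads per 1000000 reads of a library over the 16387 entries in both tables. Ring1 was at 3.09 and 4.15 RPM in RingKO, against 71.7 and 57.7 in WT, and at 9.62 in Bcat_RingKO, against 26.0 in Bcat, a ratio of 0.358 (95% counting interval 0.213 to 0.617) in the Ctnnb1-ex3 pair, where the check of the genotype is thus weaker. Rnf2 had 142 and 103 reads in RingKO, against 220 and 246 in the deeper WT libraries, so its lower counts do not show a lower level. Reads outside a deleted part of a gene do not check its deletion. The stem cell markers summed to 5751.3 and 2767.9 RPM in RingKO, against 6941.7 and 8013.9 in WT, and to 2688.5 in Bcat_RingKO, against 4126.7 in Bcat. Olfm4 was at 3272.2 and 1184 RPM in RingKO, against 4459.1 and 5304.6 in WT. In Bcat_RingKO it was at 567, against 2270.6 in Bcat. Lgr5 overlapped, with 158 and 83.8 RPM in RingKO, against 140 and 147 in WT. It was higher in Bcat_RingKO, at 337, than in Bcat, at 158. Smoc2 overlapped, and Ascl2 and Slc12a2 were lower in RingKO than in WT. In Bcat_RingKO Smoc2 was at 546, Slc12a2 at 1135.7 and Ascl2 at 102, against 460, 1121.7 and 116 in Bcat. RingKO library B stood apart from library A in the stem cell sum and in enterocyte transcripts, which are described beside the genes that moved with them. In every library gastric, Paneth and goblet transcripts were also present, with gastric markers at 344 to 3131.4 RPM, Paneth markers at 1278.2 to 12783.4 and goblet markers at 2969.2 to 17240.5. Nothing in the labels says that the 2 libraries of a group came from separate animals, so p-values measure the spread between libraries, which may be technical.

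Retinol, the alcohol form of vitamin A, enters the absorptive enterocyte of the small intestine, where RBP2 (cellular retinol-binding protein II) holds it in the cytoplasm. Alcohol dehydrogenases and short-chain retinol dehydrogenases oxidise retinol to retinaldehyde in a reversible step. The ALDH1A enzymes then oxidise retinaldehyde to retinoic acid irreversibly, retinoic acid acts through the nuclear receptors RAR and RXR, and CYP26 enzymes clear it. In the intestine this pathway is known for its part in epithelial differentiation and in the homing and instruction of immune cells.

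The promoter windows of 4 of these genes are shown. Most of the results below turn on Adh1, Adh6a and Rbp2, whose windows have few CpG dinucleotides beside that of Aldh1a2, which has many. The choice of genes did not use this feature; CpG-rich promoters are the usual sites of Polycomb complexes in mammals. Each window runs from 250 bases before to 50 bases after the RefSeq start of transcription (build GRCm38.p6), is written 5′ to 3′ on the strand of the gene, and has CpG dinucleotides in capitals. All 4 genes lie on the plus strand: Adh1 at chr3:138277335-138277634, Adh6a at chr3:138313036-138313335, Rbp2 at chr9:98490287-98490586 and Aldh1a2 at chr9:71215539-71215838.
Adh1: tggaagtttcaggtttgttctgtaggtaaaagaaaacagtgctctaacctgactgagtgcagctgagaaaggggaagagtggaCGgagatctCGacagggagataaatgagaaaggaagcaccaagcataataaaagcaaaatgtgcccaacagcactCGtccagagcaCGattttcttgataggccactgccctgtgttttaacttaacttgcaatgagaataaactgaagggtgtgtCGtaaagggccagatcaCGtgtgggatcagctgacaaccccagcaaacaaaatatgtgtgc
Adh6a: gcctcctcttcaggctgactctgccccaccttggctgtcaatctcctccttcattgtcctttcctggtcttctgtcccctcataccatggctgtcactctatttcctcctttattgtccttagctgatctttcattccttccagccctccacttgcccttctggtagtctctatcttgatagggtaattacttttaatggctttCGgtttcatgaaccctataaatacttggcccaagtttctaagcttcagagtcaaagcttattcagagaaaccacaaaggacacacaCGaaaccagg
Rbp2: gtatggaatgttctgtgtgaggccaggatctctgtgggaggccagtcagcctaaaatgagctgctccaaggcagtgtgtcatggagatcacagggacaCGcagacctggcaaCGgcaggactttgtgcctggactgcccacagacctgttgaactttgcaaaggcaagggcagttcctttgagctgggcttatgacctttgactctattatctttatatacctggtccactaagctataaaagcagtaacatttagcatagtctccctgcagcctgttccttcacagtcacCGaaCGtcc
Aldh1a2: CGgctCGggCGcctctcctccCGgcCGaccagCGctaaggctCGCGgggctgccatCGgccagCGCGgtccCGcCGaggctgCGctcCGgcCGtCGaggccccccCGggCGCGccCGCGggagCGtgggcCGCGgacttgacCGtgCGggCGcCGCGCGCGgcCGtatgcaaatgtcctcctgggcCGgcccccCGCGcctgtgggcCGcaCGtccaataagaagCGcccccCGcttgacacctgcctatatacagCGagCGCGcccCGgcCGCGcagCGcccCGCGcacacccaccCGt

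The Aldh1a2 window held 50 CpG dinucleotides and was 78% G or C, with a CpG count 1.11 times that expected from its base composition. A lower ratio was found in 98.3% of the 32851 RefSeq promoter windows, whose median was 0.38. The windows of the other genes held far fewer: 6 CpG dinucleotides and a ratio of 0.40 at Adh1, 2 and 0.14 at Adh6a, 3 and 0.26 at Adh7, and 4 and 0.21 at Rbp2. The ratio of Adh1 was near the median of all windows, with 51.5% of them below it. The windows of the 2 starts of Aldh1a1 had ratios of 0.21 and 0.06, and Cyp26b1 had 0.31. A ratio of at least 0.6 together with at least 50% G and C was met by 33.5% of all windows, and among the genes with a window by Aldh1a2 only. The letters AGGTCA, the hexamer to which nuclear receptors bind, were searched on both strands and occurred once, in the Rbp2 window; 16.3% of all windows hold them. Direct repeats of these letters spaced by 2 or 5 bases, arrangements to which retinoic acid receptors bind, were in none of the windows of these genes and in 0.00913% of all windows for each spacing. Only exact copies of the letters were searched, and at that share their absence here says nothing about receptor binding. The letters TATAAA, also searched on both strands, were found in the windows of Adh6a, Adh7, Rbp2 and Cyp26b1, and in 13.6% of all windows. These matches describe the letters of the windows only.

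**Figure D1:**
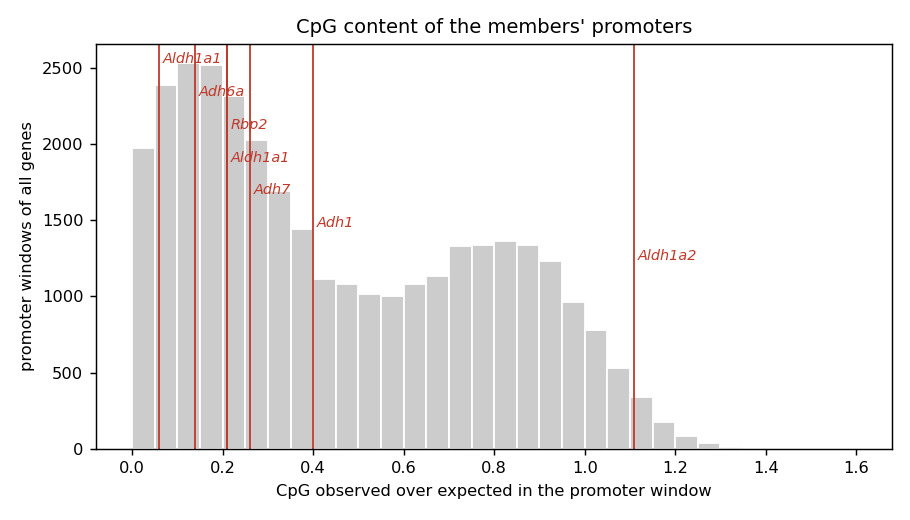
The number of RefSeq promoter windows of all genes (y axis) at each CpG observed-over-expected ratio (x axis), with the windows of the described genes marked. Aldh1a2 lies at 1.11, in the upper tail, and the other marked genes at 0.06 to 0.40.

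The alcohol dehydrogenase genes Adh1 and Adh6a were lower in both RingKO libraries than in both WT libraries, and Adh7 was too low to compare. Adh1, the class I enzyme that oxidises ethanol and retinol, had 332 and 329 reads in RingKO, against 2418 and 2183 in WT. In RPM these were 114 and 124 in RingKO, against 358 and 347 in WT, so the groups did not overlap and the libraries of each group lay close together. Its mean level was 119 ± 7.18 RPM in RingKO and 353 ± 7.98 in WT (SD, n = 2 each), with a log2 fold change of -1.52 ± 0.14 (edgeR estimate and SE). The Adh1 estimate was between -1.56 and -1.49 without any 1 library. Markers of other crypt cell types also differed between these groups. By the authors' test 6 of 6 Paneth markers rose in RingKO, summing to 9296.4 and 12783.4 RPM in RingKO, against 4002.1 and 2664.1 in WT, and 6 of 7 enteroendocrine markers fell, summing to 666 and 762 RPM in RingKO, against 1518 and 1755.2 in WT. Of 6 tuft cell markers 3 fell, the list summing to 52.6 and 63.1 RPM in RingKO, against 178 and 175 in WT. The part of these cell types in the levels of Adh1 and Adh6a was not tested.

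Adh6a, a further gene of the same family, had 27 and 52 reads in RingKO, against 365 and 305 in WT. These were 9.28 and 19.6 RPM in RingKO, against 54.1 and 48.5 in WT, again without overlap, but with library B at 2.12 times library A. The mean level of Adh6a was 14.5 ± 7.33 RPM in RingKO and 51.3 ± 3.96 in WT (SD, n = 2 each), and the log2 fold change was -1.80 ± 0.28. It was -1.37 ± 0.20 without RingKO library A and -2.40 ± 0.24 without RingKO library B. Adh7, the class IV enzyme known from gastric and oesophageal epithelium, was close to the detection limit, with 0 and 1 reads in RingKO, against 6 and 4 in WT. A count of 0 in RingKO library A allows up to 1.03 RPM (3 reads). The ratio of Adh7 in RingKO to WT was 0.242 with a 95% interval of 0.00557 to 1.7, from counting error only, which includes no difference. Gastric markers summed to 3035.5 and 2602.1 RPM in RingKO, against 2298.1 and 3131.4 in WT, and their part in the Adh7 reads was not tested. In bulk RNA, fewer cells of a type and less RNA per cell cannot be told apart.

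Of the 7 genes in the table, 2 passed the authors' test in the deposited table at an adjusted p under 0.05, namely Adh1 and Adh6a, both lower in RingKO; over all 18376 entries 4.90% were called, 3.14% higher and 1.76% lower. With edgeR 9.91% of the 11170 entries tested were higher and 2.95% lower, and with DESeq2 6.88% of 12676 were higher and 1.89% lower. Both RingKO libraries lay below both WT libraries for Adh1, Adh6a and, on 0 and 1 reads, Adh7, and above them for Aldh1a2 and, on 3 and 2 reads, Aldh1a3, while Aldh1a1 and Rbp2 overlapped. Over all entries, with no minimum level, 26.2% lay below and 21.9% above in the same way, and at a mean of at least 10 these shares were 33.6% and 24.7%. Since the genes were proposed with this comparison in view, these shares are set beside the counts and nothing is read from them. Of the 7 genes 4 (Adh1, Adh6a, Aldh1a1 and Rbp2) passed the filter on low counts of edgeR, and the other 3 are given by their reads.

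**Figure D2:**
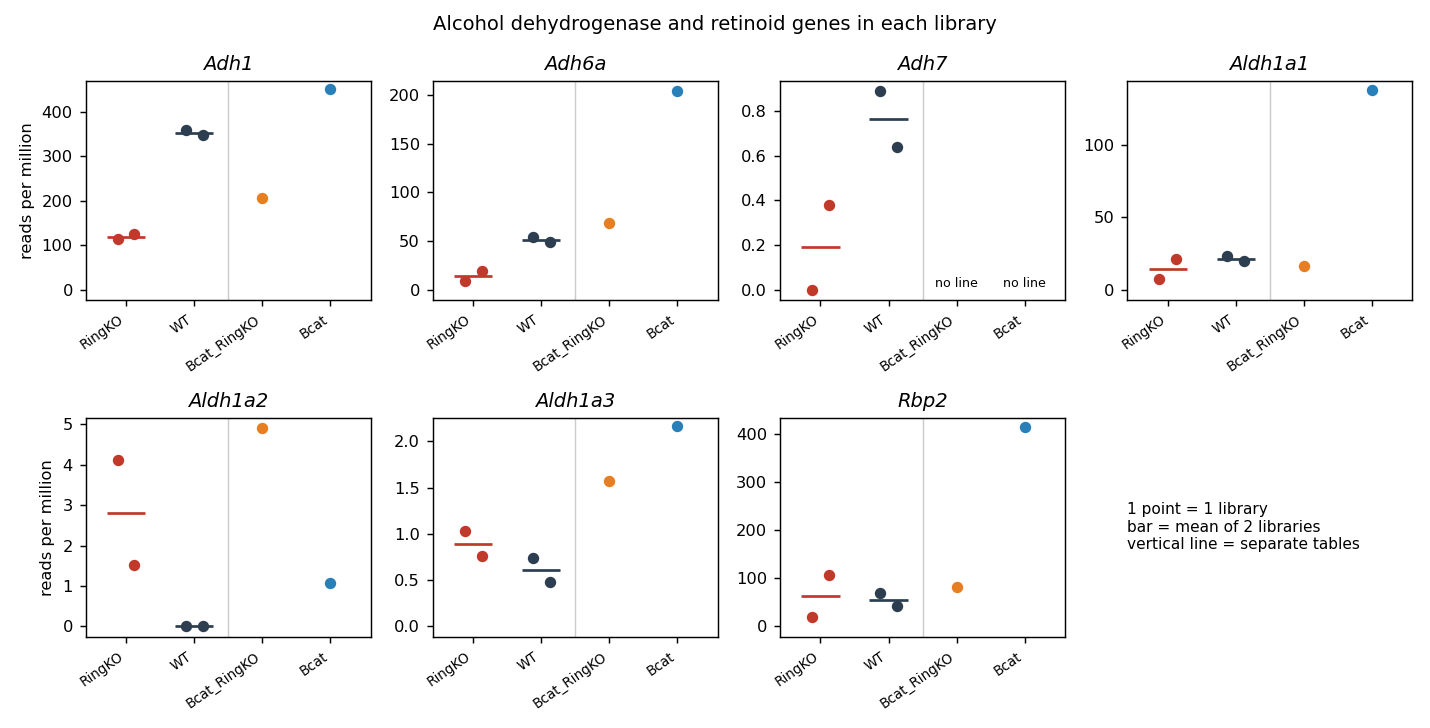
RPM (y axis, from 0, a separate scale for each gene) of 7 genes in each library of the 4 groups (x axis). Points are libraries and horizontal lines are group means where a group has 2 libraries. Adh1 and Adh6a are lower in both RingKO libraries than in both WT libraries, whereas the 2 RingKO libraries of Rbp2, at 20.3 and 106, lie on either side of WT; Adh7 has no value in the Bcat groups.

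The Adh genes lie side by side on chromosome 3 in the order Adh7, Adh1, Adh6a, Adh6b, Adh4 and Adh5 in the GRCm38 annotation. Adh5, the widely expressed class III enzyme that acts on the glutathione adduct of formaldehyde, had 623 and 487 reads in RingKO, against 1694 and 1367 in WT, a log2 fold change of -0.19 ± 0.15 that did not pass the test (adjusted p = 0.495 in the authors' deposited table). Adh4, the class II enzyme known from liver, had 0 and 3 reads in RingKO, against 16 and 10 in WT (adjusted p = 0.949 in the authors' deposited table), and Adh6b is not analysed here. The genes on the outer sides of the cluster with a line, Trmt10a (-0.20 ± 0.26) and Metap1 (-0.30 ± 0.16), did not pass the test either. On the log2 scale of the authors' deposited values, Adh5 was at -0.37, Trmt10a at -0.35 and Metap1 at -0.48. The median on that scale was -0.18 over the 10957 entries with a mean normalized count of 10 or more. The edgeR estimates are scaled otherwise and are not to be set beside this median. The difference between Adh1 and Adh5 within the cluster was not tested. Adh genes are close paralogs, and how reads shared between them were counted is not given in the sources used here. Within a library, Adh1 had 12.3 and 6.33 times the reads of Adh6a in RingKO A and B, against 6.62 and 7.16 times in WT, 3.01 times in Bcat_RingKO and 2.21 times in Bcat.

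The 3 ALDH1A genes, whose products make retinoic acid, showed 3 patterns. Aldh1a1 had 22 and 56 reads in RingKO, against 155 and 126 in WT. In RPM these were 7.56 and 21.1 in RingKO, against 23.0 and 20 in WT, so library A was below WT and library B within it. The mean of Aldh1a1 was 14.4 ± 9.61 RPM in RingKO and 21.5 ± 2.08 in WT (SD, n = 2 each). Its log2 fold change of -0.56 ± 0.38 was -0.01 ± 0.23 without RingKO library A and -1.44 ± 0.29 without RingKO library B, so that a single library set its size. Aldh1a7, a near copy of Aldh1a1 in the mouse genome, had 19 and 17 reads in RingKO, against 51 and 53 in WT, a log2 fold change of -0.26 ± 0.30, and reads of the pair may have been split between them.

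Aldh1a2, the enzyme known for retinoic acid synthesis in the mesoderm of the embryo, had 12 and 4 reads in RingKO, against 0 and 0 in WT; the WT libraries were the deeper ones. In RingKO this was 4.12 and 1.51 RPM, and in WT a count of 0 allows up to 0.444 and 0.477. Against this floor of 3 reads in each WT library its mean normalized level was at least 5.65-fold higher in RingKO, and at least 2.85-fold without RingKO library A and 8.46-fold without RingKO library B. The RingKO reads are taken as observed in these folds; the exact 95% interval of the summed reads, for counting error only, starts at 9.32-fold. Aldh1a3 had 3 and 2 reads in RingKO, against 5 and 3 in WT; the ratio of RingKO to WT was 1.51 with a counting interval of 0.389 to 5.24. Of all reads of Aldh1a1, Aldh1a2 and Aldh1a3, Aldh1a1 held 59.5% and 90.3% in RingKO, against 96.9% and 97.7% in WT, and 71.3% in Bcat_RingKO, against 97.7% in Bcat.

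Markers of other cells that can express Aldh1a2 were at 0 for some genes and at or above the level of Aldh1a2 for others. Of 7 fibroblast markers in the table, 3 were at 0 in each RingKO library, Dcn and Lum in both, whereas the collagen gene Col1a1 had 4.47 and 3.78 RPM in RingKO, against 2.67 and 0.795 in WT. The fibroblast list summed to 8.93 and 6.04 RPM in RingKO, against 7.7 and 4.29 in WT. Of the 4 mesothelial markers Msln and Upk3b were at 0 in both RingKO libraries, Wt1 had 2 and 0 reads in RingKO, against 0 and 0 in WT, and Lrrn4 had 7 and 4 reads in RingKO, against 10 and 5 in WT. These reads are not scaled for depth, and the WT libraries were the deeper ones, so the lower Lrrn4 counts do not show a lower level. The mesothelial list summed to 3.09 and 1.51 RPM in RingKO, against 1.48 and 1.43 in WT. Lrrn4 held the whole sum in RingKO library B and in WT library A. The endothelial list summed to 31.6 and 27.6 RPM in RingKO, against 31.0 and 31.5 in WT, nearly all of it Esam, with Pecam1 at 0 in both RingKO libraries. The immune list summed to 22.7 and 51.7 RPM in RingKO, against 20.1 and 17.6 in WT; Ptprc was at 0 in both RingKO libraries, and Cd68 held most of the sum, with 19.6 and 40.4 RPM in RingKO, against 14.4 and 13.5 in WT. The part of these cells in the Aldh1a2 reads was not tested.

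Rbp2 differed more between the 2 RingKO libraries than between genotypes. It had 59 and 282 reads in RingKO, against 462 and 265 in WT, which is 20.3 and 106 RPM in RingKO, against 68.4 and 42.1 in WT. The groups overlapped, with RingKO library A below and RingKO library B above both WT libraries. The mean of Rbp2 was 63.4 ± 61.0 RPM in RingKO and 55.3 ± 18.6 in WT (SD, n = 2 each), with a log2 fold change of 0.22 ± 0.58. It was 0.96 ± 0.21 without RingKO library A and -1.38 ± 0.27 without RingKO library B, so its direction rests on which library is used, and no direction is given.

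Several enterocyte transcripts moved with Rbp2 between the RingKO libraries. Rbp2 was 5.25 times as high in RingKO library B as in library A, Apoa4 4.56 times, Apoa1 4.31 times and Fabp1 3.92 times; these genes encode apolipoproteins and a fatty-acid-binding protein of enterocytes. Alpi, intestinal alkaline phosphatase, was 3.14 times and Lct, lactase, 2.92 times as high in library B as in library A. Aldh1a1 was 2.8 times as high, whereas Adh1 was 1.09 times and the brush border gene Vil1 0.98 times as high. In all, 9 of 11 enterocyte markers were higher in RingKO library B than in A, some only slightly, such as Mep1a (1.14 times) and Slc5a1 (1.09 times). Of the described genes Adh6a was also higher in library B, whereas Aldh1a2 (0.366 times) and Aldh1a3 (0.733 times), on few reads, were lower. The share of all entries higher in RingKO library B was not computed, so nothing is read from the count. In WT the same ratio, library B over library A, was 0.615 for Rbp2, 0.652 for Apoa1 and 0.534 for Apoa4, so in WT too these 3 genes were higher together in 1 library. It was also below 1 for Fabp1 (0.741), Lct (0.756), Alpi (0.805), Fabp2 (0.872) and Slc5a1 (0.952). The other enterocyte markers went the other way, namely Sis (1.2), Mep1a (1.14), Vil1 (1.05) and Anpep (1.01). The enterocyte list summed to 2090.1 and 2667.4 RPM in RingKO, against 2046.7 and 1956.5 in WT. Vil1, Anpep and Slc5a1 held most of each sum, so the sums say little about the other markers. Of those, Alpi, Fabp2, Sis and Mep1a were lower in both RingKO libraries than in both WT libraries. Apoa1, Apoa4, Fabp1 and Lct overlapped. By the authors' test 1 of the 11 genes was higher in RingKO (Anpep) and 3 were lower (Fabp2, Sis and Mep1a). The part of enterocytes in the level of Rbp2, Aldh1a1 or the Adh genes was not tested.

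**Figure D3:**
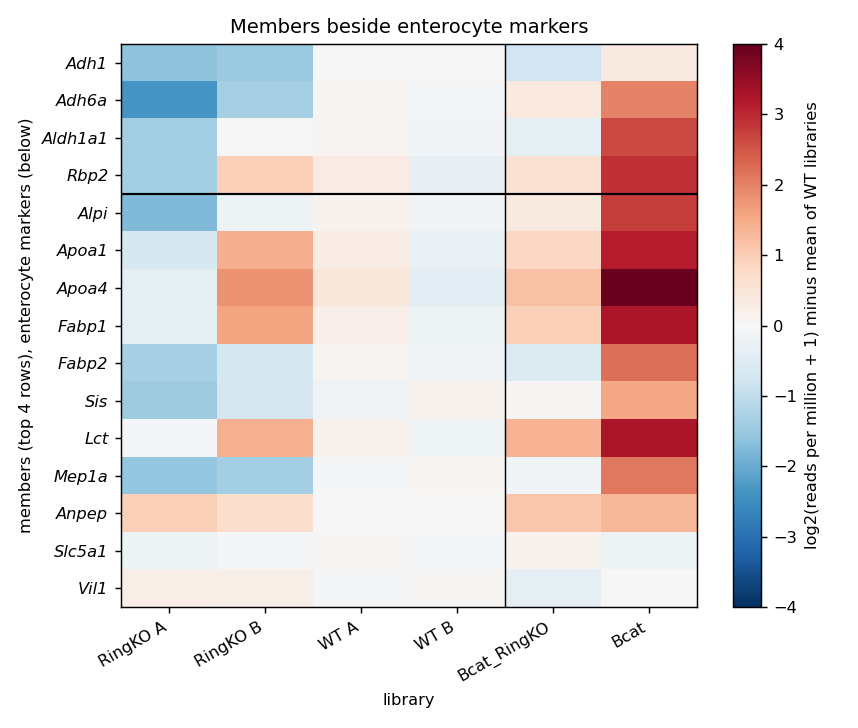
Colour shows log2(RPM + 1) minus the mean of the WT libraries, for 4 described genes (top rows) and 11 enterocyte markers (rows below) in 6 libraries (columns). The Rbp2, Aldh1a1, Apoa1, Apoa4 and Fabp1 rows are higher in RingKO library B than in A and highest in Bcat, whereas Adh1 is nearly the same in both RingKO libraries.

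In cells with the Ctnnb1-ex3 allele the 4 genes whose mean normalized count was 10 or more were each at least 2-fold lower in Bcat_RingKO than in Bcat. These were Adh1, Adh6a, Aldh1a1 and Rbp2, 4 of the 6 genes in that table; over the 10266 entries at that level, 9.19% were at least 2-fold lower and 27.1% at least 2-fold higher. There is 1 library in each group and so no spread within a group; no test was run, the p-values that the authors deposited for this pair are not used, and the intervals below cover counting error only. This pair of genotypes was also known when the genes were proposed.

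Adh1 had 918 reads in Bcat_RingKO, against 417 in Bcat, which is 205 RPM in Bcat_RingKO, against 452 in Bcat, and a normalized ratio of 0.44 (95% interval 0.392 to 0.496). Adh6a had 305 reads in Bcat_RingKO, against 189 in Bcat, or 68.2 RPM in Bcat_RingKO, against 205 in Bcat, and a ratio of 0.323 (0.268 to 0.389). Both alcohol dehydrogenases were thus lower with the Ring alleles on either background. Aldh1a1 had 72 reads in Bcat_RingKO, against 127 in Bcat, or 16.1 RPM in Bcat_RingKO, against 138 in Bcat, with a ratio of 0.113 (0.0837 to 0.153), the lowest of the 6. Rbp2 had 368 reads in Bcat_RingKO, against 383 in Bcat, or 82.3 RPM in Bcat_RingKO, against 415 in Bcat, with a ratio of 0.192 (0.166 to 0.222).

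The other genes were low in this pair. Aldh1a2 had 22 reads in Bcat_RingKO, against 1 in Bcat, a ratio of 4.4 whose interval of 0.711 to 182 includes no difference. Aldh1a3 had 7 reads in Bcat_RingKO, against 2 in Bcat, a ratio of 0.7 (0.133 to 6.91). Among the neighbours of Adh1, Adh5 had 785 reads in Bcat_RingKO, against 207 in Bcat, with a ratio of 0.758 (0.65 to 0.888), and Adh4 had 4 reads in Bcat_RingKO, against 6 in Bcat, with a ratio of 0.133 (0.0277 to 0.562).

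**Figure D4:**
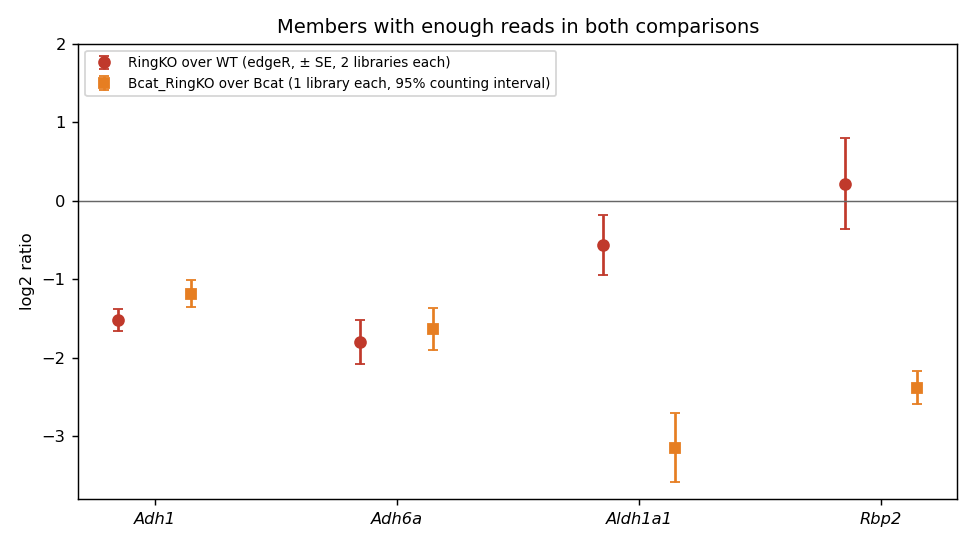
The log2 ratio (y axis) of 4 genes (x axis) in RingKO over WT (circles, edgeR estimate ± SE, 2 libraries each) and in Bcat_RingKO over Bcat (squares, 1 library each, with the 95% counting interval). Adh1 and Adh6a lie below 0 in both, and Rbp2 lies at 0.22 in the first and far below 0 in the second.

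Transcripts of enterocytes and of several other cell types were also lower in Bcat_RingKO than in Bcat. Of the 11 enterocyte markers, 10 were lower and 8 at least 2-fold lower, with ratios of 0.139 for Apoa4, 0.194 for Apoa1 and 0.195 for Fabp1, beside 0.192 for Rbp2. The list summed to 2312.1 RPM in Bcat_RingKO, against 5939.5 in Bcat. The fibroblast list summed to 6.04 RPM in Bcat_RingKO, against 47.7 in Bcat, and the enteroendocrine list to 353 in Bcat_RingKO, against 2118.7 in Bcat. The fibroblast sum in Bcat rests on few reads, among them 25 of Col1a2, 9 of Col3a1 and 8 of Col1a1. All 6 Paneth markers were at least 2-fold lower, summing to 1278.2 RPM in Bcat_RingKO, against 4517.3 in Bcat, and so were 6 of the 9 gastric markers with enough reads, the list summing to 344 RPM in Bcat_RingKO, against 1077.3 in Bcat. The immune list summed to 75.2 RPM in Bcat_RingKO, against 15.2 in Bcat, of which Cd68 held 63.3 and 6.51. The mesothelial list summed to 4.25 in Bcat_RingKO, against 5.42 in Bcat. The sums of the goblet, tuft cell and endothelial lists were not lower in Bcat_RingKO. They were 3090.8, 219 and 50.3 RPM in Bcat_RingKO, against 2969.2, 203 and 16.3 in Bcat. The goblet markers were split. Of 6, 3 were at least 2-fold lower, with ratios of 0.277 for Tff3, 0.294 for Spink4 and 0.333 for Agr2. Another 2 were at least 2-fold higher, Muc2 at 2.48 and Fcgbp at 2.03. Esam held most of the endothelial sums, with 50.1 RPM in Bcat_RingKO, against 15.2 in Bcat. Whether the content of these cells bears on the 4 genes or on Aldh1a2 was not tested.

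To set the 4 groups beside each other, the order of the levels was taken for each gene. The tables were scaled separately by the authors, so levels are set side by side in RPM, with no test. In Bcat, Rbp2 was at 7.52 times the WT mean, Aldh1a1 at 6.41 times, Adh6a at 4 times and Adh1 at 1.28 times, each above both WT libraries. Aldh1a2 (1 read) and Aldh1a3 (2 reads) were too low in Bcat for a ratio to carry weight. Of the 11 enterocyte markers 9 were also higher in Bcat than in both WT libraries. The share of all entries higher in Bcat in this way was not computed, so nothing is read from such counts. For Adh1 the order of the groups was RingKO (119), Bcat_RingKO (205), WT (353) and Bcat (452), in RPM, with both RingKO libraries below all others. For Adh6a it was RingKO (14.5), WT (51.3), Bcat_RingKO (68.2) and Bcat (205). For Aldh1a1, RingKO (14.4), Bcat_RingKO (16.1) and WT (21.5) did not differ beyond the spread between the RingKO libraries, and Bcat (138) stood above them; for Rbp2 the same holds of WT (55.3), RingKO (63.4) and Bcat_RingKO (82.3), below Bcat (415). With scaling by the trimmed mean of M values (TMM) over the 6 libraries, Adh1 was at 130 in RingKO, 389 in WT, 156 in Bcat_RingKO and 412 in Bcat, and Adh6a at 51.7 in Bcat_RingKO, against 56.6 in WT, so the order of these groups for Adh6a depends on the scaling.

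Levels of different genes were compared as RPM per kilobase of transcript. In WT, Adh1 was highest at 236, ahead of Rbp2 at 82.3, Adh6a at 38.2 and Aldh1a1 at 10.5, and Adh7 and Aldh1a3 were at 0.222 and 0.177. In RingKO, Rbp2 (30.2 and 158 in libraries A and B) and Adh1 (76.5 and 83.3) overlapped, and so did Adh6a (6.92 and 14.60) and Aldh1a1 (3.68 and 10.30). In Bcat_RingKO, Adh1 was at 138 and Rbp2 at 123, close to each other, followed by Adh6a at 50.9. In Bcat, Rbp2 was highest at 618, followed by Adh1 at 303, Adh6a at 153 and Aldh1a1 at 67.1. Aldh1a2 reached 1.24 in RingKO, 0 in WT, 2.17 in Bcat_RingKO and 0.479 in Bcat on this scale.

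The genes whose levels ran most like those of each described gene over the 6 libraries were found by the Euclidean distance of log2(RPM + 1), each gene centred on its mean, among 9648 genes reaching at least 10 RPM in a library. For Adh1 they were Otc, the urea cycle enzyme ornithine transcarbamylase (distance 0.422), and the non-coding RNA Gas5 (0.448). Otc had 66.3 and 65.7 RPM in RingKO, against 181 and 159 in WT, and 105 in Bcat_RingKO, against 303 in Bcat. For Adh6a they were Bmx (0.628) and Prune2 (0.696), and for Aldh1a1 Pirt (0.533) and Saa1 (0.563). For Rbp2 they were the apolipoprotein genes Apoa1 (0.646) and Apoc3 (0.712). For Aldh1a2 they were H2afy2 (0.583) and Ptpn14 (0.641), and for Aldh1a3, which had 22 reads in all, Znrd1 (0.117) and Perp (0.216). Among the described genes, Rbp2 and Aldh1a1 were 1.14 apart and Adh1 and Adh6a 1.94 apart. The measure is a description over 6 libraries and mixes the differences between groups with those between libraries.

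Beyond the described genes, 77 genes in 7 lists were examined, 6 lists of the retinoid pathway and 1 of other alcohol and aldehyde dehydrogenases, of which 69 genes were in the RingKO and WT table. By the authors' test 4 rose and 5 fell in RingKO, beside 3.14% higher and 1.76% lower over all entries. With edgeR on recovered reads 7 of 49 tested were called higher and 4 lower, beside 9.91% and 2.95% of all entries it tested; without 1 of the WT libraries it called 1 to 2 in each direction, and without 1 of the RingKO libraries 9 to 11 higher and 8 to 10 lower. Here a gene is said to rise or fall if the authors' adjusted p was under 0.05. The lists were chosen with earlier results of these data known.

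Among 17 other alcohol and aldehyde dehydrogenases in the table, 1 rose and 0 fell by the authors' test (1 and 1 at an unadjusted p under 0.05; 1 and 0 with edgeR and with DESeq2), with a median of -0.26 for the authors' deposited log2 fold changes of genes with a mean of at least 10, beside -0.18 over all such entries. The one that rose was Aldh4a1, a mitochondrial enzyme of proline breakdown that is not known as part of the retinoid pathway. It had 229 and 215 reads in RingKO, against 57 and 60 in WT, a log2 fold change of 3.19 ± 0.17 (adjusted p = 3.78e-21 in the authors' deposited table). It was also higher in Bcat_RingKO than in Bcat, with a ratio of 4.52 (95% counting interval 2.60 to 8.60). Aldh1b1, a mitochondrial aldehyde dehydrogenase, had 5415 and 3653 reads in RingKO, against 13491 and 12581 in WT, a log2 fold change of -0.26 ± 0.19 that did not pass the test.

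Of 16 short-chain dehydrogenases and related enzymes that act between retinol and retinaldehyde, 1 rose and 2 fell by the authors' test (2 and 3 at an unadjusted p under 0.05; 2 and 1 with edgeR; 1 and 1 with DESeq2), with a median of 0.21 over 13 genes. Rdh11, a retinaldehyde reductase, fell, with 117 and 70 reads in RingKO, against 476 and 397 in WT (-0.95 ± 0.21, adjusted p = 0.00133 in the authors' deposited table). Dhrs4, a peroxisomal retinaldehyde reductase, fell, with 351 and 249 reads in RingKO, against 1138 and 984 in WT (-0.55 ± 0.16, adjusted p = 0.021 in the authors' deposited table); edgeR gave it an adjusted p of 0.0678. Rdh9 rose, with 38 and 31 reads in RingKO, against 20 and 23 in WT (1.94 ± 0.32, adjusted p = 0.0236 in the authors' deposited table), and shares a gene cluster of close copies with Rdh1 and Rdh7, so its count is uncertain. Rdh1 had 41 and 31 reads in RingKO, against 36 and 25 in WT, with an adjusted p of 0.117 in the authors' deposited table and of 0.0166 with edgeR. In the Ctnnb1-ex3 pair the ratio was 1.01 (0.652 to 1.62) for Rdh9 and 0.829 (0.602 to 1.16) for Rdh11, and both intervals include no difference. For Dhrs4 it was 0.682 (0.561 to 0.833). Without WT library A and without WT library B, edgeR gave adjusted p values of 0.132 and 0.0738 for Rdh11 and of 0.0858 and 0.0475 for Rdh9.

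Among 10 genes of retinoid uptake and ester handling in the table, 0 rose and 1 fell by the authors' test (1 and 3 at an unadjusted p under 0.05; 1 and 1 with edgeR; 0 and 1 with DESeq2), with a median of -0.79 over 6 genes. Isx, the homeobox repressor that holds back vitamin A uptake in the intestine, fell, with 148 and 172 reads in RingKO, against 910 and 778 in WT (-1.12 ± 0.16, adjusted p = 2.7e-06 in the authors' deposited table). With edgeR its adjusted p was 0.0359 without WT library A and 0.0211 without WT library B, and its ratio in Bcat_RingKO to Bcat was 0.364 (0.300 to 0.442). Lrat, which esterifies retinol, had 68 and 55 reads in RingKO, against 224 and 197 in WT, a log2 fold change of -0.50 ± 0.18 that did not pass the test, and its ratio in the Ctnnb1-ex3 pair was 1.72 (1.15 to 2.66).

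Among 8 other retinoid-binding proteins in the table, 0 rose and 0 fell by the authors' test (1 and 1 at an unadjusted p under 0.05, and 1 and 1 with edgeR and with DESeq2), with a median of 0.36 over 4 genes. Rbp7, a cellular retinol-binding protein, had 13 and 18 reads in RingKO, against 158 and 82 in WT (-1.66 ± 0.39), and Ttr, the carrier partner of the retinol-binding protein of plasma, had 229 and 257 reads in RingKO, against 398 and 337 in WT (0.68 ± 0.16). Of 3 genes of retinoic acid clearance, 0 rose and 1 fell by the authors' test (0 and 1 at an unadjusted p under 0.05, and also with edgeR and with DESeq2). Cyp2s1, a cytochrome P450 able to oxidise retinoic acid, fell, with 116 and 109 reads in RingKO, against 483 and 429 in WT (-0.74 ± 0.15, adjusted p = 0.0122 in the authors' deposited table); with edgeR its adjusted p was 0.153 without WT library A and 0.121 without WT library B. Cyp26a1, the enzyme of that family best known as a retinoic acid target, had 0 and 2 reads in RingKO, against 0 and 1 in WT.

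Of 9 retinoic acid receptors and cofactors in the table, 2 rose and 0 fell by the authors' test (2 and 0 at an unadjusted p under 0.05, with edgeR and with DESeq2), with a median of -0.18 over 7 genes. Rarb, a retinoic acid receptor gene that is itself a target of retinoic acid, had 21 and 14 reads in RingKO, against 6 and 6 in WT (2.78 ± 0.45, adjusted p = 0.0327 in the authors' deposited table). In the Ctnnb1-ex3 pair Rarb had 68 reads in Bcat_RingKO, against 1 in Bcat, a ratio of 13.6 (2.36 to 545). Rarg, the receptor known from skin, had 11 and 10 reads in RingKO, against 0 and 0 in WT, at least 7.44-fold higher against the floor of 3 reads in each WT library (adjusted p = 0.00864 in the authors' deposited table). Its other entry, with means of 8.58 normalized reads in RingKO and 3.65 in WT in the authors' deposited table, did not pass. In the Ctnnb1-ex3 pair the called entry of Rarg had 11 reads in Bcat_RingKO, against 1 in Bcat. Its ratio there was 2.2, and the interval of 0.32 to 94.7 includes no difference. Without WT library A or B, edgeR gave adjusted p values of 0.130 and 0.121 for Rarb and of 0.0788 and 0.0763 for Rarg. The promoter window of Rarb had a CpG ratio of 0.70 and met both limits used above, and the windows of Rarg had 0.34 and 0.50 and did not. Among the other called genes with a window, Dhrs4 (0.62), which fell, met both limits. Aldh4a1 (0.43) and Rdh9 (0.20), which rose, did not. Rdh11 (0.52 and 0.38), Isx (0.08) and Cyp2s1 (0.57), which fell, did not either. Rara and Rxra, with 23 and 14 and with 386 and 379 reads in RingKO, against 52 and 39 and 1067 and 911 in WT, did not pass the test.

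Of 12 known retinoic acid targets in the table, which include Rarb, 1 rose and 1 fell by the authors' test (1 and 2 at an unadjusted p under 0.05; 1 and 0 with edgeR; 1 and 1 with DESeq2), with a median of -0.17 over 6 genes. Cdx1, an intestinal homeobox gene that responds to retinoic acid in the mouse embryo, had 1208 and 1417 reads in RingKO, against 4822 and 4229 in WT (-0.51 ± 0.16, adjusted p = 0.00893 in the authors' deposited table); edgeR gave it an adjusted p of 0.0873. Dhrs3, a retinaldehyde reductase induced by retinoic acid, had 46 and 30 reads in RingKO, against 76 and 86 in WT, a log2 fold change of 0.17 ± 0.27 that did not pass the test.

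**Figure D5:**
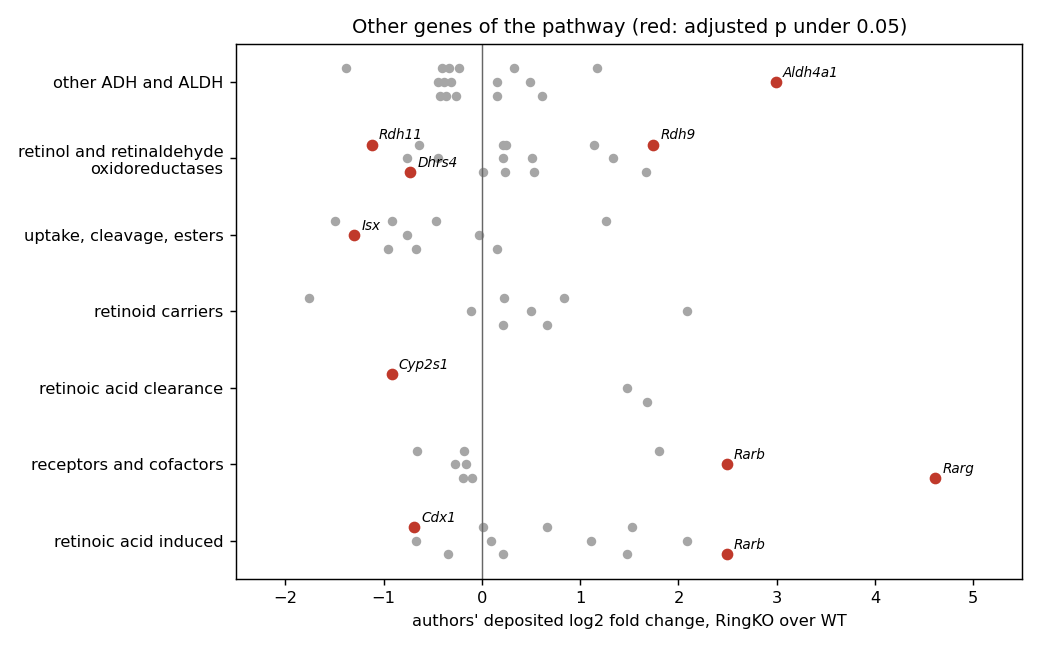
The authors' deposited log2 fold change of RingKO over WT (x axis) for the genes of 7 lists (rows), 1 point per gene; red points passed the authors' test. Of 69 genes, 4 are red to the right of 0 (Rarb stands in 2 rows) and 5 to the left of 0.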

How the data were processed

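Per the labels' protocols, libraries of sorted Lgr5-GFP+ crypt cells were made with the TruSeq RNA v2 kit. TopHat, DESeq and build mm9 are named in the submitters' processing notes. The counter of reads, its annotation and its strand setting were not given in the sources used here. The authors deposited normalized coverage (signal) per RefSeq entry, as group means for RingKO and WT and as 1 value per library for the Bcat pair. They also deposited the ratio (fold) of the groups and its log2 value, p-values for both tables and adjusted p-values for RingKO and WT. The adjusted p-values served as the main test (under 0.05), and the p-values of the Bcat pair were not used.

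The values show that 1 was added to every read count before the authors divided it by the size factor. The single-library counts were recovered from the deposited means: in RingKO all 18376 entries had 1 solution, in WT 18366 had 1 and 10 had several, and in the Bcat pair all were whole within 0.001. Which of A and B is replicate 1 of the labels is unknown. On these counts edgeR 4.0.16 (quasi-likelihood test, TMM, filterByExpr), DESeq2 1.42.0 and limma 3.58.1 (log2 of normalized reads + 1) were run over all entries, with Benjamini-Hochberg adjustment, after they were tested on simulated data. Log2 fold changes with ± are edgeR estimates and SE. The SE was derived as the absolute log2 fold change divided by the square root of the quasi-likelihood F statistic. Ratios of the Bcat pair use the authors' size factors, with exact conditional binomial 95% intervals; intervals and floors (3 reads in each library) cover counting error only.

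The described genes and the gene lists were chosen with earlier results of these data known. Named were all 8 genes, the checks of genotype and cell type, the other Adh genes and the neighbours of their cluster, up to 4 called genes of each list by smallest adjusted p, and the 2 genes nearest in pattern to each described gene with at least 20 reads. Aldh1a7, Aldh1b1, Rdh1, Lrat, Rbp7, Ttr, Cyp26a1, Rara, Rxra, Dhrs3 and single cell type markers were named after their values were seen. The files use mm9, so coordinates and sequences come only from the RefSeq promoter table of GRCm38.p6, which held 7 of the 8 genes; Aldh1a3 was not among them.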

Additional observations from a re-analysis of the deposited data

Results flagged for a closer look

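The differences of Aldh1a3 had opposite signs in the 2 comparisons. Both RingKO libraries lay above both WT libraries, with a mean difference of 0.55 in log2 RPM, whereas Bcat_RingKO minus Bcat was -0.47. The difference between the comparisons was not tested, and it rests on 2 to 7 reads per library; the counting intervals of both ratios include no difference.

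Cyp2s1, a cytochrome P450 able to oxidise retinoic acid, also had differences of opposite sign. The mean of RingKO minus that of WT was -0.79 in log2 RPM, with both RingKO libraries below both WT libraries, whereas Bcat_RingKO minus Bcat was 0.52. This difference was not tested either, and the counting interval of the ratio in the Bcat pair, 0.965 to 2.07 around 1.39, includes no difference.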

How the results depend on the processing

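No paired analysis was possible because the deposited table gives group means for RingKO and WT, and the recovered libraries carry no replicate numbers. Over all entries the authors' table called 577 higher and 323 lower. On recovered reads edgeR called 1107 higher, 1060 without a filter on low counts and 1121 with RLE size factors, and DESeq2 called 872; limma called 610 lower. With edgeR and 1 library left out, it called 1938 higher and 1338 lower without RingKO A, 1322 and 589 without RingKO B, 479 and 87 without WT A, and 519 and 83 without WT B. A group left with 1 library is assumed to vary like the other. For the pathway lists the authors' table called 4 higher and edgeR 7, and edgeR called 11 higher and 10 lower without RingKO A, 9 and 8 without RingKO B, 1 and 1 without WT A, and 2 and 2 without WT B. The cause of these shifts was not tested. The log2 fold change of Adh1, -1.52 with edgeR, was -1.71 with limma and -1.70 in the authors' deposited table. In the Bcat pair TMM scaling lowered all log2 ratios by 0.22; the ratio became 0.379 for Adh1 and 0.165 for Rbp2, and the 4 genes stayed at least 2-fold lower, beside 13.3% of all entries at that level. Each described gene has 1 entry, so summing entries changes nothing. The fold of Aldh1a2 over its floor, at least 5.65, would be 11.3 against 3 reads over the WT group, an alternative added after seeing the data. Depth limits Adh7, Aldh1a2 and Aldh1a3 in all libraries, and a count of 0 in the Bcat library allows up to 3.25 RPM.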
